A study of Mus musculus with 9 samples.

Results

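The genes described here encode the subunits of respiratory complexes II to V, with a few factors that build or tether them. They were all genes whose symbol in the annotation of the arrays began with Uqc, Cox4 to Cox8 or Atp5, or was Sdha, Sdhb, Sdhc, Sdhd or Cyc1. This rule, which used no measured value, found 50 of the 18193 genes on the arrays. Complex II had 4 of them, complex III 12, complex IV 17 and complex V 17. Together they had 98 probe sets, of which the one brightest on average over the 9 arrays stood for each gene.

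The tissue was myocardium of the right ventricle from C57BL6J mice, all male and 6 to 8 weeks old. In 5 samples the mice had undergone pulmonary banding, which narrows the artery that the right ventricle empties into, and in 4 samples they had undergone a sham operation. Each sample was 1 Affymetrix array hybridised with RNA of the whole tissue, and values are on the log2 scale. The labels number the replicates without saying that each is a separate animal, so p-values measure the spread between these samples, which may be technical.

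In the respiratory chain, electrons enter through complex I (from NADH) or complex II (from succinate), pass over complex III and cytochrome c, and are handed to oxygen by complex IV. Complexes I, III and IV pump protons across the inner mitochondrial membrane, and complex V, the ATP synthase, uses the proton gradient to make ATP. The heart depends on this route for most of its ATP, and several small subunits of complex IV exist in a form of heart and skeletal muscle and a form found in most tissues. The subunits of complex II are all encoded in the nucleus, whereas complexes III, IV and V also hold chains encoded in mitochondrial DNA, which are not among the 50 genes.

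Of the 50 genes, 39 (78.0%) were lower in banding at an adjusted p under 0.05 and 0 were higher, in the limma fit over all genes with Benjamini-Hochberg adjustment. At an unadjusted p under 0.05 the number higher was also 0. Over all 18193 genes, 20.0% were lower and 18.4% higher by the same rule. The members are bright, and bright genes were lower more often than others on these arrays. Among 660 other genes with a sham mean from 12 to 17, 54.4% were lower (median difference -0.30), against 37 of the 42 members at that level (median -0.46). The median difference, banding minus sham, was -0.45 log2 units over all 50 members and 0.00 over all genes. A dim level was set 2 log2 units above the lowest value on the arrays. For genes above it in both groups, the median was -0.46 over 47 members and -0.018 over 10373 genes. In 37 of the 50 members every banding array lay below every sham array, which was the case in 19.3% of all genes. The falls were modest in size, with 3 members (Sdha, Uqcc1 and Cox7a1) at least 2-fold lower by their chosen probe sets. Cox4i2, Cox7b2 and Cox8c were dim in both groups, and their values cannot show a change.

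**Figure D1:**
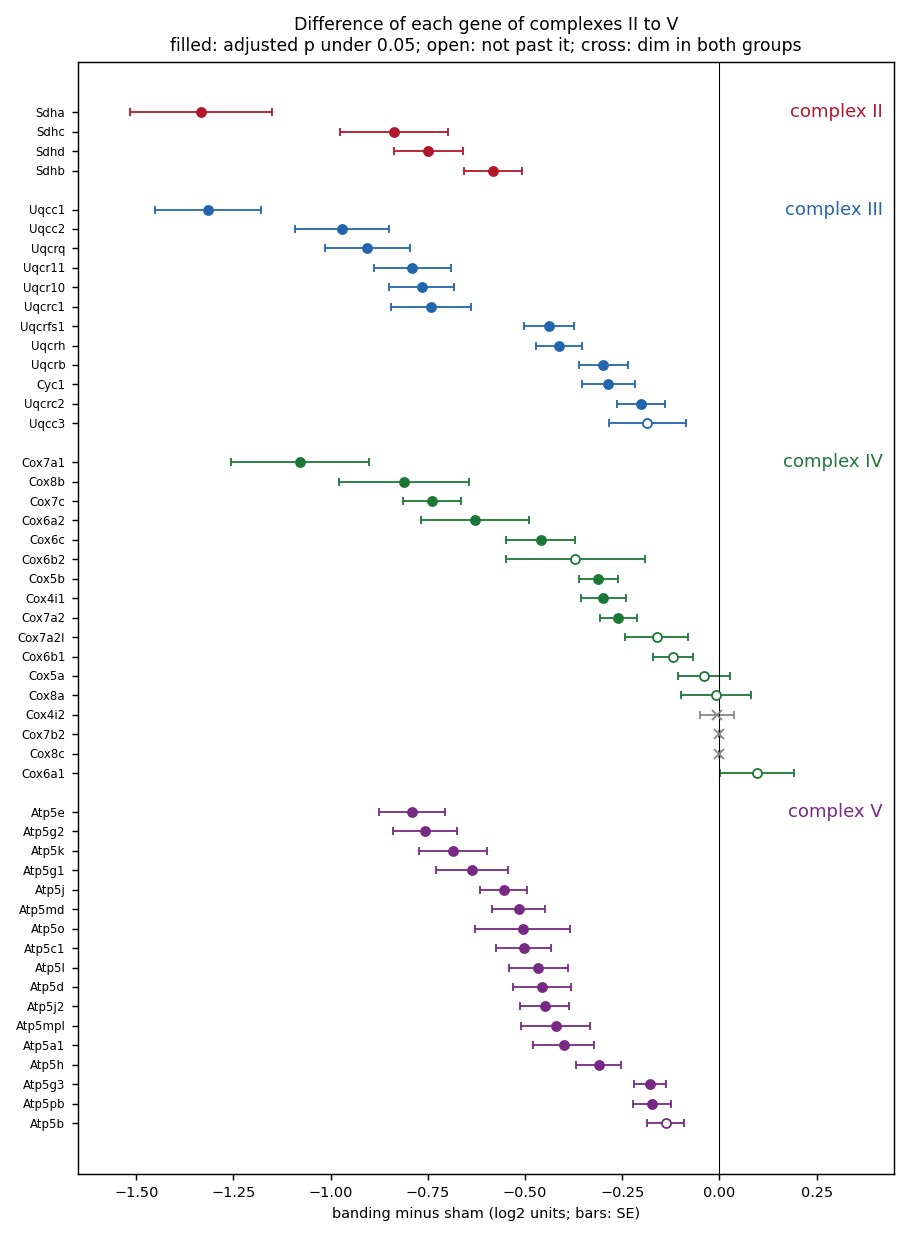
Difference of each gene between banding (5 arrays) and sham (4 arrays) in log2 units, with its standard error, grouped by complex and sorted within it. Complexes II, III and V lie to the left of 0, while complex IV holds most of the genes that did not pass the test.

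The 12 markers of ventricular cardiomyocytes were above the dim level on every array. Their mean log2 level lay in the range 15.22 to 15.28 on the sham arrays and 14.90 to 15.17 on the banding arrays, with 6 of 12 lower and 1 higher. All 10 fibroblast markers were higher (array means 10.63 to 10.93 in sham and 12.81 to 13.10 in banding), as were 10 of 11 macrophage, 7 of 8 smooth muscle and pericyte and 6 of 10 endothelial markers. All 12 liver markers were lower, with array means of 8.33 to 12.51 in sham, highest on sham replicate 4, and 2.95 to 4.95 in banding, highest on banding replicate 5. Sham replicate 4 also had the highest mean of 8 fast skeletal muscle markers, 5.83, against at most 3.49 on each other array. Of 6 atrial cardiomyocyte markers 2, Nppa and Dkk3, were higher (array means 7.43 to 9.48 in sham and 8.90 to 11.24 in banding). Of 6 adipocyte markers, Ucp1, Lep, Retn and Cidec were dim in both groups, and Cidea (-0.24 ± 0.13) and Adipoq (0.95 ± 1.09) did not pass (array means 3.89 to 4.35 in sham and 3.79 to 4.52 in banding). Of 3 erythroid markers 1, Alas2, was lower (array means 5.80 to 6.14 in sham and 4.80 to 6.12 in banding). Without sham replicate 4 and banding replicate 5, 35 of the 50 members were called lower. In such bulk tissue, fewer cardiomyocytes and less of a transcript per cardiomyocyte cannot be told apart, and the part of these markers in the falls was not tested.

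Complex II, succinate dehydrogenase, oxidises succinate in the citric acid cycle and passes the electrons to ubiquinone. All 4 of its subunit genes were lower, with a median of -0.79 log2 units, the lowest median of the 4 complexes. Sdha encodes the flavoprotein that holds the active site, and by the chosen probe sets it had the largest fall among the 50 genes. On the arrays in order of replicate number it was at 13.12, 12.68, 13.07, 12.37 and 12.45 in banding and 14.15, 14.25, 13.99 and 13.90 in sham. The groups were 0.78 log2 units apart, from the highest banding to the lowest sham array. The difference was -1.33 ± 0.18, adjusted p = 0.000852 in limma (± SE, as for all differences below), a 2.52-fold fall. This probe set is of a type that can cross-hybridise, and a second bright one of Sdha differed by -0.94 ± 0.11. Without probe sets of that type, Sdha differed by -0.94, less than Uqcc1 (-1.32), Cox7a1 (-1.08) and Uqcc2 (-0.97). The mean of all its probe sets, which include a faint and a dim one, differed by -0.72 (adjusted p = 0.00134), so the size of the fall depends on the probe set while the call does not.

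Sdhb encodes the iron-sulphur subunit. It had the smallest fall of the 4 (-0.58 ± 0.075, adjusted p = 0.000629), at 14.23, 13.98, 14.07, 13.92 and 13.84 in banding and 14.55, 14.61, 14.63 and 14.59 in sham. Sdhc and Sdhd encode the membrane anchors that bind ubiquinone. Sdhc was at 12.80, 12.52, 12.84, 12.23 and 12.48 in banding and 13.52, 13.56, 13.26 and 13.31 in sham (-0.84 ± 0.14, adjusted p = 0.00214). Sdhd was at 12.70, 12.30, 12.48, 12.30 and 12.31 in banding and 13.18, 13.24, 13.10 and 13.14 in sham (-0.75 ± 0.089, adjusted p = 0.000437). In none of these 3 genes did the groups overlap. A dimmer probe set of Sdhd, of a type that can cross-hybridise, differed by -0.11 ± 0.078 and did not pass (adjusted p = 0.372 over all probe sets).

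Promoters of 38 members were found in a table made from RefSeq for the GRCm38.p6 build, which gives 250 bases before and 50 after each annotated start. They were searched on both strands for short motifs of factors known to drive mitochondrial genes. The promoter of Sdhd is printed because it carries both a match to the motif of estrogen-related receptors, TNAAGGTCA, and a match to the looser of 2 forms of the nuclear respiratory factor 1 (NRF1) motif, in which the fifth base is free. Both are in capitals and match on the opposite strand of the printed sequence. The NRF1 match begins at position -79 and the receptor match at position 37, counted from the annotated start.
Sdhd promoter, chr9:50603800-50604099, minus strand, GRCm38.p6: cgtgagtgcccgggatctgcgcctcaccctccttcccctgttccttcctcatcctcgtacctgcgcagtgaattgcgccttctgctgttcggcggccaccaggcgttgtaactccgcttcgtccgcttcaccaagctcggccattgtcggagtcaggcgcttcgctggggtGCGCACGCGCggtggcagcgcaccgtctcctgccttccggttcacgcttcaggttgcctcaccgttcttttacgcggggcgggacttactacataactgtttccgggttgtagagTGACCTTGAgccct
Some genes have several listed promoters, and a gene was counted if any of them held a match. The receptor motif was found in 2 of 38 (5.26%) members, Sdhd and Atp5g3, and in 1.20% of 14369 genes on the arrays with a promoter. The looser NRF1 motif was found in 11 of 38 (28.9%) and in 8.63% of all, and the strict form in 4 of 38 (10.5%) and in 1.75% of all. Every strict match is also a loose one. The GABPA motif CCGGAAGT was in 4 of 38 (10.5%) against 6.65%, and the YY1 motif AAGATGGCG in 2 of 38 (5.26%) against 2.54%. A match describes the letters of the promoter and is no measurement of binding.

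Complex III, the cytochrome bc1 complex, passes electrons from ubiquinol to cytochrome c. All 9 of its subunit genes on the arrays were lower, with differences from -0.91 to -0.20 and a median of -0.44. The small subunits had a median of -0.77 over 5 genes, and the core and redox subunits one of -0.36 over 4 genes. The largest fall of a subunit was in Uqcrq, of the membrane part. It was at 13.29, 12.79, 12.90, 12.78 and 12.79 in banding and 13.76, 13.81, 13.87 and 13.82 in sham (-0.91 ± 0.11, adjusted p = 0.000469). Banding replicate 1 stood above the other banding arrays and still below every sham array. The other probe sets of Uqcrq were dim. Without probe sets prone to cross-hybridisation the gene had only these and was not called, and averaging all its probe sets gave -0.23.

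Uqcr11 and Uqcr10, also small subunits, were 1.73-fold (-0.79 ± 0.099, adjusted p = 0.000561) and 1.70-fold lower (-0.77 ± 0.083, adjusted p = 0.000304). Uqcr11 lay between 13.16 and 13.62 in banding and between 14.08 and 14.28 in sham, and Uqcr10 lay between 12.65 and 13.03 in banding and between 13.48 and 13.70 in sham. The core protein gene Uqcrc1 was 1.67-fold lower (-0.74 ± 0.10, adjusted p = 0.000886). Its fellow core protein gene Uqcrc2 fell less, at 14.80, 14.60, 14.80, 14.82 and 14.86 in banding and 15.05, 15.04, 14.86 and 14.98 in sham. The groups touched, and the difference was -0.20 ± 0.062, adjusted p = 0.0357. The call was lost in turn without sham replicate 1, 2 or 4 or without banding replicate 1, 3 or 4 (adjusted p up to 0.0963). A dimmer probe set of Uqcrc2 differed by -0.43 ± 0.061 (adjusted p = 0.00125 over all probe sets). The redox subunits, encoded by the Rieske protein gene Uqcrfs1 (-0.44 ± 0.064, adjusted p = 0.00115) and the cytochrome c1 gene Cyc1 (-0.29 ± 0.068, adjusted p = 0.0119), were both lower. Cyc1 lost its call without both sham replicate 4 and banding replicate 5 (-0.27, adjusted p = 0.0717).

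The members of the Uqcc family are not subunits but factors that help assemble complex III around its mitochondrially encoded cytochrome b. Uqcc1 was at 9.99, 9.60, 9.85, 9.42 and 9.45 in banding and 11.08, 11.11, 10.88 and 10.84 in sham. The groups were 0.85 log2 units apart, and the fall was 2.49-fold (-1.32 ± 0.14, adjusted p = 0.000253). A second probe set gave -1.84 ± 0.17. Uqcc2 was 1.96-fold lower (-0.97 ± 0.12, adjusted p = 0.000536) and lay between 11.26 and 11.71 in banding and between 12.34 and 12.64 in sham. Uqcc3 was at 9.56, 9.55, 9.43, 9.52 and 9.32 in banding and 9.56, 9.54, 9.97 and 9.57 in sham and did not pass (-0.19 ± 0.10, adjusted p = 0.207). Its groups overlapped, with sham replicate 3 alone high.

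Complex IV, cytochrome c oxidase, had the median nearest to 0 of the 4 complexes, -0.26 log2 units over its 17 genes and -0.30 over the 14 above the dim level. Of the 17, 8 were lower and 9 did not pass. The latter were the 3 dim genes with Cox5a, Cox6a1, Cox6b1, Cox6b2, Cox7a2l and Cox8a. The largest falls were in Cox7a1, Cox8b, Cox7c, Cox6a2 and Cox6c. Of these 5, Cox7a1, Cox8b and Cox6a2 encode the heart and muscle form of a subunit that also has a widely expressed form.

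Cox7a1, the heart and muscle form of subunit VIIa, was at 14.22, 13.89, 14.02, 13.52 and 13.34 in banding and 14.89, 14.88, 14.87 and 14.86 in sham. The sham arrays were within 0.039 log2 units of each other, and the banding arrays were spread over 0.88. The difference was -1.08 ± 0.18, adjusted p = 0.00208, a 2.11-fold fall. Its widely expressed partner Cox7a2 was at 14.69, 14.51, 14.60, 14.52 and 14.48 in banding and 14.79, 14.81, 14.88 and 14.79 in sham, 1.20-fold lower (-0.26 ± 0.047, adjusted p = 0.00323). Within each array, Cox7a1 minus Cox7a2 was -0.76 ± 0.29 (SD, n = 5) in banding and 0.058 ± 0.047 (SD, n = 4) in sham. This log ratio differed by -0.82 between the groups (two-sided exact permutation test over samples, p = 0.00794, adjusted over 6 isoform pairs 0.00952). With groups of 5 and 4 that p is the smallest the test can give. A log ratio shows unequal change of the genes of a pair, not which is more abundant.

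Cox8b, the heart and muscle form of subunit VIII, was at 14.50, 14.27, 14.31, 13.82 and 13.78 in banding and 14.85, 14.85, 15.14 and 14.93 in sham. It was 1.76-fold lower without overlap (-0.81 ± 0.17, adjusted p = 0.00604). Its partner Cox8a was at 10.80, 10.39, 10.46, 10.61 and 10.42 in banding and 10.50, 10.49, 10.66 and 10.53 in sham. The groups overlapped and Cox8a did not pass (-0.0097 ± 0.090, adjusted p = 1), with a sign that turned when single arrays were left out. The log ratio Cox8b minus Cox8a was 3.60 ± 0.30 (SD, n = 5) in banding and 4.40 ± 0.063 (SD, n = 4) in sham, a difference of -0.80 (exact permutation p = 0.00794, adjusted 0.00952).

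The promoters of this pair are printed so that their letters can be compared, and a link between these letters and the response was not tested. In Cox8b the capitals mark the letters TATAAA, which begin at position 5 from the annotated start. In Cox8a they mark 2 matches to the GABPA motif on the opposite strand, at positions -6 and 32.
Cox8b promoter, chr7:140900397-140900696, minus strand, GRCm38.p6: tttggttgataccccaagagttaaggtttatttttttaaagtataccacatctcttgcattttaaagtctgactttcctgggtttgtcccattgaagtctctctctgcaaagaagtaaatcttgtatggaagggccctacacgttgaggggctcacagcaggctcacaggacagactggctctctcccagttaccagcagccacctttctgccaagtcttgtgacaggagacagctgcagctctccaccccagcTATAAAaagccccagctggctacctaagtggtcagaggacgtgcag
Cox8a promoter, chr19:7217567-7217866, minus strand, GRCm38.p6: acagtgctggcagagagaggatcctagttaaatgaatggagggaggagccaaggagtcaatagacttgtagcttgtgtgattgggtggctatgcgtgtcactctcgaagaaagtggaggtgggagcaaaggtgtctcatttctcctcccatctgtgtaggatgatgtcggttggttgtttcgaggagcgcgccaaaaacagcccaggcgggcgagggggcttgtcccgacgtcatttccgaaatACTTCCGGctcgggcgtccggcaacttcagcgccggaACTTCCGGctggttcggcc
The Cox8b promoter held 2 CpG dinucleotides in its 300 bases and that of Cox8a held 19. For Cox7a1 and Cox7a2 the numbers were 7 and 20. No promoter was found for Cox6a2, so its pair with Cox6a1 could not be compared. With the first listed promoter of each gene, the median was 19 over the 38 members with a promoter and 17 over all 14369 genes. TATAAA was present in 4 of the 38 members (10.5%) and in 11.5% of all genes. The MEF2 motif, CTA and TAG with 4 free bases between them, was present in 1 of 38 (2.63%) and in 4.02% of all. Among other members, low counts were found in Uqcc1 (7), which fell, and in Uqcc3 (9), Cox6b2 (10) and the dim Cox7b2 (10), which did not pass. Sdha, with the largest fall by the chosen probe sets, held 25, and Uqcc2 held 21.

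Cox6a2, the heart and muscle form of subunit VIa, was at 14.26, 13.97, 13.98, 13.58 and 13.69 in banding and 14.45, 14.49, 14.67 and 14.50 in sham, 1.55-fold lower (-0.63 ± 0.14, adjusted p = 0.00819). Its partner Cox6a1 was at 14.30, 14.08, 14.01, 14.33 and 14.22 in banding and 13.97, 14.00, 14.08 and 14.32 in sham. This was the 1 member above the dim level with a positive difference, and it did not pass (0.096 ± 0.095, adjusted p = 0.507). Sham replicate 4, where liver markers were highest, had the highest sham value of Cox6a1, which is also called the liver form. The other widely expressed forms were not highest there. On that array Cox7a2 had its lowest sham value, 14.79, and Cox8a was at 10.53, within a sham range of 10.49 to 10.66. The part of that array's liver transcripts was not tested. Without sham replicate 4, the difference of Cox6a1 was 0.17 (adjusted p = 0.171). The log ratio Cox6a2 minus Cox6a1 was -0.29 ± 0.33 (SD, n = 5) in banding and 0.44 ± 0.17 (SD, n = 4) in sham. It differed by -0.72 (exact permutation p = 0.00794, adjusted 0.00952), and by -0.81 without sham replicate 4.

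**Figure D2:**
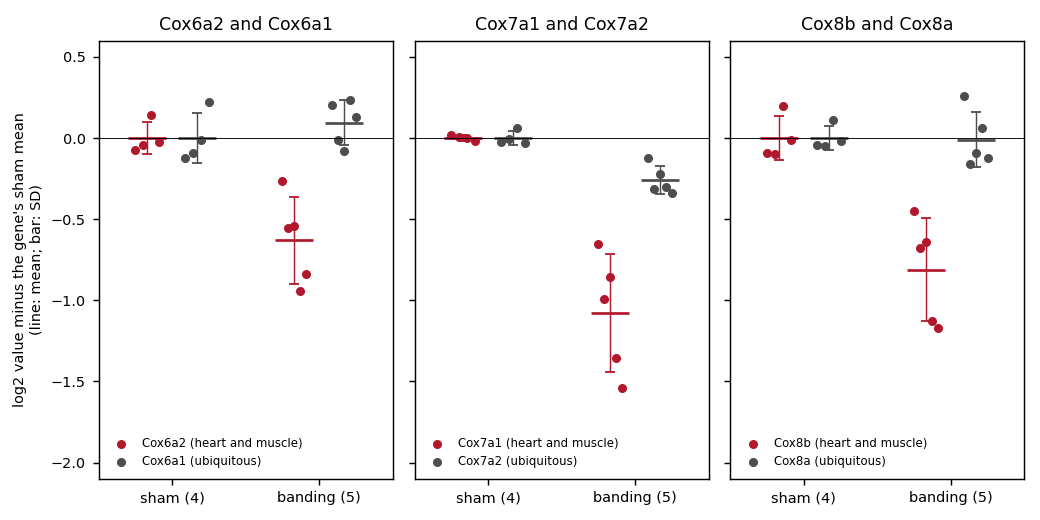
Log2 value of each array minus the gene's sham mean, for 3 pairs of complex IV isoforms, the heart and muscle form beside the widely expressed form, with the group means and bars of 1 SD. The heart and muscle forms differ by -1.08 to -0.63 log2 units on average, Cox7a2 by -0.26, and Cox6a1 and Cox8a overlap between the groups.

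Cox4i2, the form of subunit IV known from lung and from low oxygen, was dim on all arrays. Its log ratio to Cox4i1, 0.29 higher in banding (exact permutation p = 0.0238, adjusted 0.0238), therefore reflects the fall of Cox4i1 alone, and it lost its call without most single arrays. Cox4i1 was 1.23-fold lower (-0.30 ± 0.059, adjusted p = 0.00481), at 14.93, 14.79, 14.85, 14.68 and 14.67 in banding and 15.04, 15.08, 15.15 and 15.06 in sham. Cox7c, a small subunit, was read by a probe set of low brightness and lay between 6.49 and 6.74 in banding and between 7.28 and 7.52 in sham (-0.74 ± 0.074, adjusted p = 0.000217). Its other probe set was dim, and with the mean of both the call was lost (-0.25, adjusted p = 0.26). Cox6c was 1.38-fold lower (-0.46 ± 0.089, adjusted p = 0.00445) and lay between 13.98 and 14.39 in banding and between 14.52 and 14.66 in sham. Cox5b, a subunit on the matrix side, was lower by its chosen probe set (-0.31 ± 0.050, adjusted p = 0.00182) and by more, -0.55, in the probe set brightest in sham.

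The members that did not pass include some of the brightest. Cox5a, a subunit on the matrix side, was at 15.06, 14.93, 15.06, 14.89 and 14.98 in banding and 15.01, 14.98, 14.90 and 15.20 in sham. Its groups overlapped (-0.039 ± 0.066, adjusted p = 0.745). Of 2 further bright probe sets of Cox5a, the brighter was lower (-0.37 ± 0.068, adjusted p = 0.00481 over all probe sets) and the other was not (-0.014 ± 0.035), and the mean of all 3 passed (-0.14, adjusted p = 0.039). Cox6b1, which faces the intermembrane space, was at 15.48, 15.25, 15.31, 15.29 and 15.27 in banding and 15.41, 15.39, 15.52 and 15.44 in sham (-0.12 ± 0.052, adjusted p = 0.118). Banding replicate 1 was the array on which it overlapped sham, and without it Cox6b1 passed (-0.16, adjusted p = 0.00696). It also passed when its probe sets were averaged, and when arrays were centred on their medians. Cox7a2l, a factor linked to supercomplexes of complexes III and IV, had a difference of -0.16 ± 0.080, adjusted p = 0.169. Omitting banding replicate 1 brought it past the threshold (-0.22, adjusted p = 0.0199). Cox6b2, a form known from testis, was faint and lay between 5.56 and 6.08 in banding and between 5.94 and 6.64 in sham (-0.37 ± 0.18, adjusted p = 0.158).

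Complex V, the ATP synthase, has a catalytic head, a rotating ring of c subunits in the membrane, and stalks that link them. Of its 17 genes 16 were lower and 1 missed the threshold. The median was -0.47 log2 units, with no fall as large as 2-fold. The head genes had a median of -0.46 (4 of 5 lower), the ring genes -0.64 (3 of 3), the peripheral stalk genes -0.41 (4 of 4) and the small membrane subunits -0.47 (5 of 5).

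Within the head and its rotor stalk, the genes differed. Atp5e, the small epsilon subunit, was at 13.66, 13.42, 13.46, 13.33 and 13.21 in banding and 14.22, 14.25, 14.20 and 14.16 in sham, 1.73-fold lower (-0.79 ± 0.084, adjusted p = 0.000283). Atp5b, the catalytic beta subunit, was at 15.02, 14.87, 14.91, 14.82 and 14.78 in banding and 15.02, 15.03, 15.04 and 14.98 in sham and missed the threshold narrowly (-0.14 ± 0.048, adjusted p = 0.0552). Banding replicate 1 lay among the sham arrays, and without it Atp5b passed (-0.17, adjusted p = 0.00524), as it did after centring each array on its median (-0.18, adjusted p = 0.0174). The alpha subunit gene Atp5a1 (-0.40 ± 0.077, adjusted p = 0.00442), the gamma gene Atp5c1 (-0.50 ± 0.070, adjusted p = 0.000904) and the delta gene Atp5d (-0.46 ± 0.075, adjusted p = 0.00199) were lower with no overlap. Atp5c1 was no longer called without cross-hybridising probe sets, at a difference of -0.54 (adjusted p = 0.052). The probe set left for it there was faint, at 4.96 in banding and 5.50 in sham.

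The c subunit of the ring is encoded by 3 genes, whose mature proteins are the same and whose import sequences differ. Atp5g2 was at 12.93, 12.59, 12.66, 12.62 and 12.52 in banding and 13.40, 13.44, 13.50 and 13.35 in sham (-0.76 ± 0.082, adjusted p = 0.000302). Its other probe sets were dim, and the mean of all of them gave -0.28. Atp5g1 was at 14.52, 14.16, 14.30, 14.07 and 14.13 in banding and 14.88, 14.91, 14.92 and 14.77 in sham (-0.64 ± 0.093, adjusted p = 0.00112). Atp5g3 was at 15.00, 14.80, 14.91, 14.85 and 14.86 in banding and 15.01, 15.06, 15.09 and 15.09 in sham, a smaller fall (-0.18 ± 0.041, adjusted p = 0.00972) whose call was lost under quantile normalization (-0.11, adjusted p = 0.0631) and without both sham replicate 4 and banding replicate 5 (-0.17, adjusted p = 0.0655). The groups of these 3 genes did not overlap. The log ratio to Atp5g3 differed by -0.46 for Atp5g1 and by -0.58 for Atp5g2, each with an exact permutation p of 0.00794 (adjusted 0.00952). With the mean of all probe sets the value for Atp5g2 was -0.10 (adjusted p = 0.0397). The promoter of Atp5g3 is printed for comparison with that of Sdhd, because both genes carry both motifs while their differences were -0.18 and -0.75. The receptor motif, in capitals on the opposite strand, begins at position -52 and the NRF1 motif at position 13 from the annotated start.
Atp5g3 promoter, chr2:73911277-73911576, minus strand, GRCm38.p6: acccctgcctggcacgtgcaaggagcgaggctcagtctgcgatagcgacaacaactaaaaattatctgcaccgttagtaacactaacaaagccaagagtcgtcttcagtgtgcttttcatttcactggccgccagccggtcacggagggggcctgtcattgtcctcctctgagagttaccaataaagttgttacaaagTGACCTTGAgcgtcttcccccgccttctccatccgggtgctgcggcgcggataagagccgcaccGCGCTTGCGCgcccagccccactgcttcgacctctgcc

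Among the other subunits of complex V, the largest falls were in Atp5k (-0.69 ± 0.088, adjusted p = 0.000632) and Atp5j (-0.55 ± 0.061, adjusted p = 0.000317). Atp5k, a small membrane subunit at the interface between ATP synthase dimers, lay between 13.54 and 13.99 in banding and between 14.35 and 14.49 in sham. Atp5j, of the peripheral stalk, lay between 13.64 and 13.94 in banding and between 14.25 and 14.32 in sham. Atp5pb, subunit b of that stalk, had the smallest called fall of the complex (-0.17 ± 0.049, adjusted p = 0.0238), with overlap. Its call was lost in turn without sham replicate 1, 2 or 4 or without banding replicate 4 or 5 (adjusted p up to 0.0662). A second probe set of Atp5pb, at 14.42 in sham, gave -0.64 ± 0.084 (adjusted p = 0.000911 over all probe sets).

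Such disagreement was counted over all probe sets. Of the 98, 82 were not dim in either group, and of these 66 were lower and 16 did not pass, against 29.0% lower among all 17727 single-gene probe sets above the dim level in each group. There were 19 members with at least 2 probe sets of 12 log2 units or more. In 10 of them the probe set brightest in sham had a less negative difference than a dimmer one, and in 9 it did not. The gaps among the 10 were widest in Atp5pb, Cox5a, Uqcrb (-0.30 against -0.60) and Uqcrc2, and among the 9 in Sdha.

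By level, the median difference was -0.75 in 8 members with a sham mean from 13 to 14, -0.54 in 20 members from 14 to 15 and -0.30 in 12 members from 15 to 17. The same medians over other genes were -0.30, -0.32 and -0.24. Over the 47 members above the dim level, the Spearman correlation between sham level and difference was 0.34 and the Pearson correlation 0.11. These are across genes, which share the arrays and are not independent replicates.

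**Figure D3:**
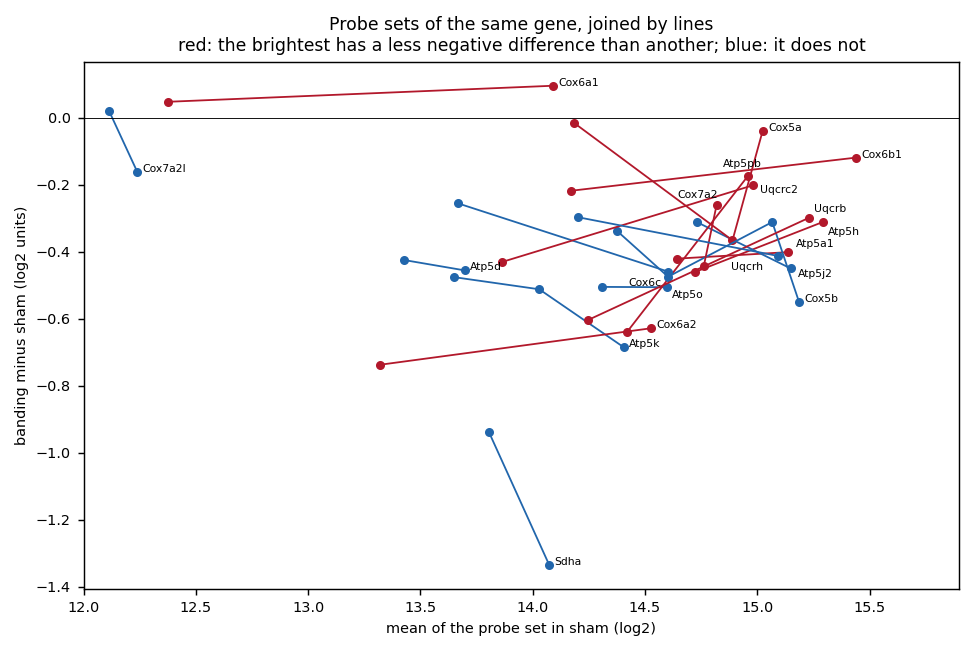
Mean in sham (log2, horizontal) against banding minus sham (log2 units, vertical) for the probe sets of the 19 genes with at least 2 bright ones, each gene's probe sets joined by a line. In 10 genes the brightest probe set has a less negative difference than a dimmer one, and in 9 it does not.

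The falls were not of the same size on all banded arrays. Over the 47 members, the median distance from the sham mean was -0.27 on banding replicate 1 and between -0.56 and -0.46 on the other 4. Banding replicate 1 held the highest banding value in 40 of the 47 members and the lowest in 0. Its mean of ventricular cardiomyocyte markers was the highest of the banding arrays, 15.17, as was its atrial mean, 11.24. Its macrophage mean was the lowest of them, 9.86, next to 10.07, and its fibroblast mean of 12.95 lay within the range of the others. The part of these markers in the smaller falls was not tested. Without banding replicate 1, 41 members were called lower. The sham arrays stayed closer together, with medians from -0.043 to 0.053, and sham replicate 3 held the highest sham value in 30 members. In 40 of 47 members the SD was larger in banding than in sham (medians 0.14 and 0.067), against 54.6% of the 10373 genes above the dim level.

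On each of the 5 banding arrays the complexes kept a single order, with complex II lowest, then III, V and IV. On banding replicate 4 these medians were -1.02, -0.62, -0.53 and -0.33, and on banding replicate 1 they were -0.54, -0.35, -0.28 and -0.16. All arrays were set against the same sham mean, and the order was not tested. Complexes III and V changed places over all arrays when cross-hybridising probe sets were dropped, with medians of -0.37 and -0.48. The genes of complex III here include its 3 assembly factors. Its 9 subunit genes alone had a median difference of -0.44, against -0.47 for complex V, so the place of complex III below V rests on those factors.

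**Figure D4:**
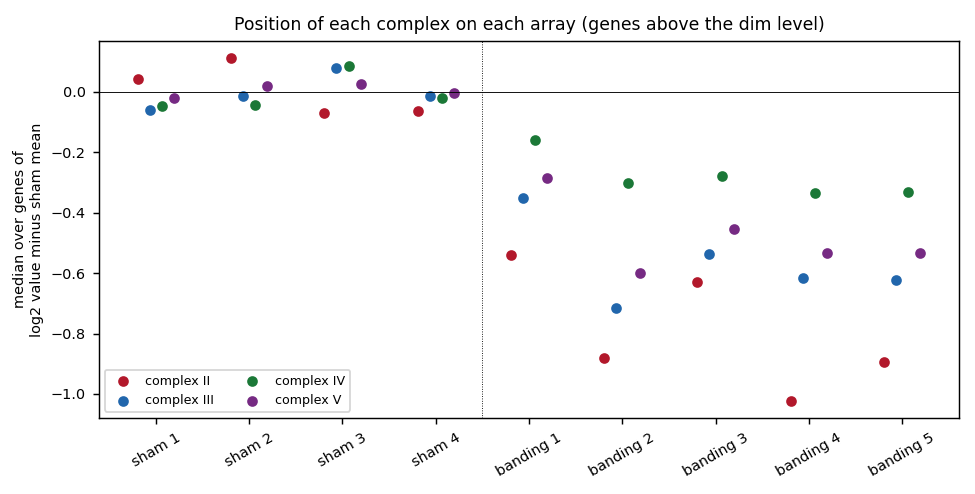
Median over the genes of each complex above the dim level of the log2 value minus the gene's sham mean, for each of the 9 arrays. All medians of the banding arrays lie below those of the sham arrays, complex II is lowest and complex IV nearest to 0 on each of the 5, and banding replicate 1 lies nearest to sham.

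Other genes of the pathway were counted from lists. Of 44 genes with symbols beginning with Nduf, the subunits and assembly factors of complex I, 41 were lower and 1 was higher, with a median of -0.71 log2 units. The exception was Ndufa4l2 (0.90 ± 0.19, adjusted p = 0.0064), a relative of Ndufa4 known to be induced by low oxygen, at 6.76 to 7.52 in banding and 6.01 to 6.71 in sham. Ndufa4, now counted as a subunit of complex IV, was lower (-0.64 ± 0.081, adjusted p = 0.000624). Of 30 assembly factors of complexes II to V outside the 50 genes, 25 were lower and 5 did not pass. Their median was -0.75. The smallest p-values were those of Surf1 (-0.82 ± 0.058), Coa7 (-1.32 ± 0.099) and Cox16 (-0.78 ± 0.067), all factors of complex IV.

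Cycs encodes the cytochrome c that carries electrons from complex III to IV, and it was lower (-0.39 ± 0.064, adjusted p = 0.002). Atpif1, the inhibitor that binds the head of ATP synthase and stops it from running in reverse, was higher, at 13.58 to 13.73 in banding and 13.25 to 13.39 in sham (0.35 ± 0.040, adjusted p = 0.000381). Its direction was opposite to that of the 16 called genes of the enzyme it binds. Of mitochondrial DNA, ND5 of complex I was measured, at 15.18 to 15.40 in banding and 15.38 to 15.61 in sham (-0.23 ± 0.059, adjusted p = 0.0172), with overlap.

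Of 18 genes of mitochondrial membrane structure, 16 were lower and 2 did not pass (median -0.65). Among 17 regulators of mitochondrial transcription and biogenesis, 11 were lower and 2 (Yy1 and Pprc1) higher (median -0.55). Polrmt, the mitochondrial RNA polymerase, was lower (-0.94 ± 0.10, adjusted p = 0.000307). Esrra, whose product binds the receptor motif named above, was also lower (-1.06 ± 0.12, adjusted p = 0.000399), as was Mterf3, a regulator of mitochondrial transcription (-0.46 ± 0.054, adjusted p = 0.000417).

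**Figure D5:**
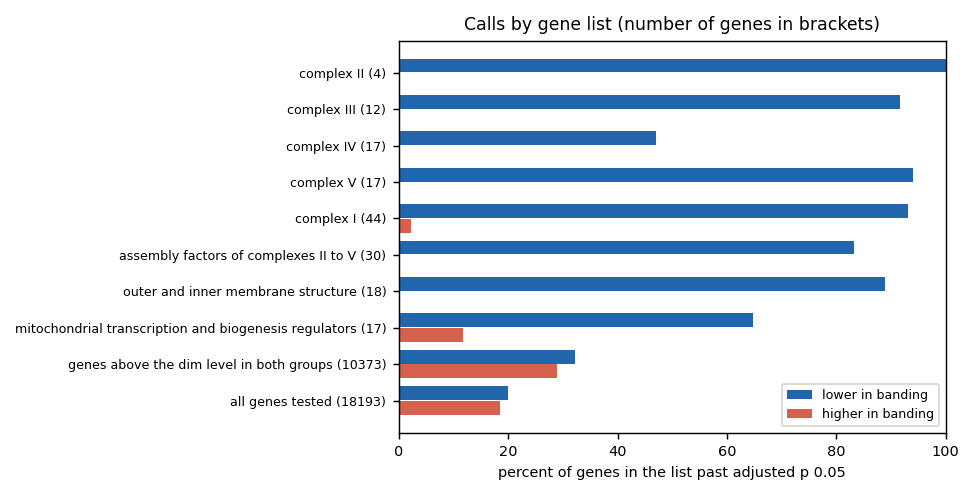
Percent of the genes in each list that were lower or higher in banding at an adjusted p under 0.05, with the number of genes in brackets. Complexes II, III and V and complex I stand between 91.7% and 100% lower, complex IV at 47.1%, and all genes tested at 20.0% lower and 18.4% higher.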

How the data were processed

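The deposited table holds log2 expression per probe set of an Affymetrix mouse array, from 2.198 to 16.43. Per the submitters' processing notes the authors used RMA and GCRMA, which correct background and normalize, without version, role or order. Nothing was normalized again. Of 45101 probe sets, 64 controls, 9160 with no gene and 932 with several were left out, and 34945 named 18193 genes. Banding and sham were compared in limma 3.58.1 (R 4.3.3; lmFit, eBayes, no covariate), with Benjamini-Hochberg adjustment over 18193 genes. Dim means under 4.198. On simulated data the fit called 36% of 50 genes changed by 0.5 log2 units and 82% of 50 changed by 1. There the changed genes were drawn at random and 17993 of 18193 genes were left unchanged. In the data 6989 genes were called, so these shares do not apply to the members. The number of arrays limits the precision.

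Members, isoform pairs and lists were chosen with earlier results of these data known. Named in full were isoform pairs, complex II, the 5 largest called falls of each other complex and members that did not pass, with up to 3 genes by p from other lists. Ndufa4, Ndufa4l2, Yy1, Pprc1, the adipocyte markers and the CpG examples were named after their values were seen, and the motifs MEF2 and TATAAA and CpG counts were added then. Alternatives covered probe set choice, dim genes, normalization, the variance model, left-out arrays and a replicate block. Protein sequences were not used here.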

Additional observations from a re-analysis of the deposited data

Results flagged for a closer look

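Arrays far from the others of their group were sought in the members above the dim level and in the isoform log ratios, by the gap to the nearest other array as a share of the group's range. Of 104 groups 9 had such an array, where chance alone flags about 1 in 20. Banding replicate 1 was high in Cox5b (14.90, next 14.74), Cox6b1 (15.48, next 15.31), Cox7a2l (12.31, next 12.05) and Uqcrq (13.29, next 12.90). Banding replicate 2 was low in Uqcrc2 (14.60, next 14.80). Sham replicate 3 was high in Atp5h (15.39, next 15.27), Uqcr11 (14.28, next 14.09) and Uqcc3 (9.97, next 9.57). Sham replicate 4 was low in the log ratio Atp5g1 minus Atp5g3 (-0.31, next -0.16).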

How the results depend on the processing

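Over 18 alternatives, 29 to 41 members were called lower in limma, against 39, and 0 higher. Of 47 members above the dim level, 27 kept direction and call in each of the 18. Another 2, Atp5d and Atp5e, kept them in 17 and had no probe set left without the cross-hybridising ones. Cox6a1, Cox6b2 and Uqcc3 are counted here because they passed in none. Of the members called lower, 26 stayed called in every alternative that held them. Leaving out 1 array at a time gave 37 to 41 members lower and medians of -0.86 to -0.74 for complex II, -0.65 to -0.56 for III, -0.29 to -0.23 for IV and -0.50 to -0.44 for V. The median of complex III was -0.44 with the mean of all probe sets and -0.37 without cross-hybridising probe sets, where that of complex IV was -0.12.

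The log ratio difference of Cox4i2 was 0.27 to 0.34 with 1 array left out, no longer called for 7 of the 9 arrays, nor without sham 4 and banding 5 (0.27). The replicate numbers did not pair the arrays (correlations of deviations from -0.029 to 0.036). With the replicate block on numbers 1 to 4, 5277 genes were called, against 6583 without it on those arrays (added after seeing the data). Log ratio differences under the block were 0.27 for Cox4i2 (the same without it), -0.66 for Cox6a2, -0.72 for Cox7a1, -0.74 for Cox8b, -0.44 for Atp5g1 and -0.55 for Atp5g2, where 4 pairs cannot give an exact p under 0.125.

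Gene differences that changed sign were small, except in Cox7c. Cox5a was 0.0090 under quantile normalization, -0.080 to 0.020 over single arrays left out (positive without sham replicate 4) and 0.021 without sham 4 and banding 5. Cox7a2l was 0.020 and Cox7c 0.24 without cross-hybridising probe sets. Cox8a was 0.031 under quantile normalization, 0.012 without sham 4 and banding 5, 0.018 on numbers 1 to 4 with and without the block, and -0.076 to 0.028 over single arrays left out. The cause was not tested.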
